A study of Mus musculus with 36 samples.

Results

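The lung transcriptomes of mice lacking the receptor Notch3 and of mice lacking the receptor Notch4 were compared with each other after 6 hr of ozone. The comparison takes the 3 arrays labelled *Notch3* knockout and 6 hr ozone and the 3 labelled *Notch4* knockout and 6 hr ozone, 6 of the 36 arrays of the study, over all 45037 probe sets that are not array controls. Each array held whole left lung RNA of 1 male mouse aged 7 to 13 weeks. The *Notch3*-/- mice were of the stock B6;129S1-Notch3tm1Grid/J, the *Notch4*-/- mice of B6;129S1-Notch4tm1Grid/J, and both groups of 3 breathed 0.3 ppm ozone continuously in a whole-body chamber. The other 30 arrays, 3 in each group, hold both lines in filtered air and after 24 hr and 48 hr of ozone, and WT mice (B6129SF1/J, first-generation hybrids of the B6 and 129S1 parents) at all 4 exposures. Each line is thus a separate stock on a mixed background with 1 targeted gene, and the WT mice are not its littermates, so that the deleted gene and anything else in which the stocks differ cannot be told apart. Every value is log2 and has the probe set's median over the 36 arrays taken off, so differences between mice can be read and the brightness of a gene cannot.

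Notch receptors are single-pass membrane proteins that are cut when a Jagged or Delta-like ligand on a neighbouring cell binds them. The freed intracellular part enters the nucleus and, with the DNA-binding protein Rbpj, switches on genes of the Hes and Hey families. Notch3 is best known from smooth muscle cells and pericytes around vessels, and Notch4 from endothelial cells.

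The targeted genes were read first. One *Notch3* probe set was at -3.59, -4.07 and -4.51 in the *Notch3*-/- mice and at 0.34, 0.42 and 0.42 in the *Notch4*-/- mice, a difference of -4.45 ± 0.24 log2 (SE, n = 3 per line, limma adjusted p = 4e-13). The other *Notch3* probe set differed by -2.36 ± 0.16 (adjusted p = 9.6e-11). Each SE here and below comes from a spread pooled within groups over all 36 arrays, not from the 6 mice alone. Of 3 *Notch4* probe sets, one was at -0.30, -0.29 and 0.10 in *Notch3*-/- and at -3.75, -3.87 and -3.82 in *Notch4*-/- mice, a difference of 3.65 ± 0.31 (adjusted p = 1.6e-08). All 6 mice thus carried the signal that their labels give. The remaining *Notch4* probe sets differed by 0.62 ± 0.15 (adjusted p = 0.079) and -0.01 ± 0.14 (adjusted p = 1), and whether they lie within the deleted part of the gene was not examined.

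The 6 arrays had standard deviations of 0.229 to 0.34 log2 and medians of -0.0275 to 0.0017. In air, the first *Notch4* probe set was at -1.97 and -1.40 in *Notch4*-/- replicates 1 and 2 and at -3.69 in replicate 3, so that the first 2 of these mice stood apart from their line. Every difference of ozone responses below uses these air mice, and the count of calls without them is given beside it.

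With 1 mean per group in limma, 93 probe sets passed an adjusted p of 0.05 between the lines at 6 hr, 0.206% of those tested. Of these, 36 were higher in *Notch3*-/- lungs (0.0799%) and 57 were lower (0.127%), and 61 genes had at least 1 such probe set (0.335% of 18193 genes). The values of the *Notch3*-/- and *Notch4*-/- mice did not overlap for any of the 93, which holds for 9.56% of all probe sets. The last probe set to pass, which has no single gene, differed by -0.86 (adjusted p = 0.0462), and the first not to pass, a probe set of *Chrdl1*, by -0.83 (adjusted p = 0.0591). Unadjusted p-values were under 0.05 for 2441 probe sets (5.42%). In bulk lung RNA, fewer cells of a type and less RNA per cell cannot be told apart.

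The called genes differed in how their 6 hr difference compared with the other exposures. On chromosome 7, led by a run of *Trim* genes, 0 of 19 called probe sets had a mean difference in air, 24 hr and 48 hr of at least 0.5 times the 6 hr size in the same direction. On chromosomes 17, 5 and 10, 27 of 28, 10 of 11 and 3 of 3 did. On chromosome 19, 1 of 5 did, and of the 10 called probe sets on all other chromosomes, 0 did. Over all 93 called probe sets 53.8% did, and over all tested probe sets 32.8%. By sign alone, 17 of the 19 chromosome 7 probe sets differed in air in the same direction as at 6 hr (89.5%, against 52.2% of all probe sets). At 24 hr 9 did and at 48 hr 7 did (47.4% and 36.8%, against 52% and 51.1%). By chromosome, 14 called genes lay on 7 (0.991% of 1413 measured), 23 on 17 (2.76% of 834), 10 on 5 (0.891% of 1122), 5 on 19 (0.821% of 609) and 3 on 10 (0.349% of 860).

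**Figure D1:**
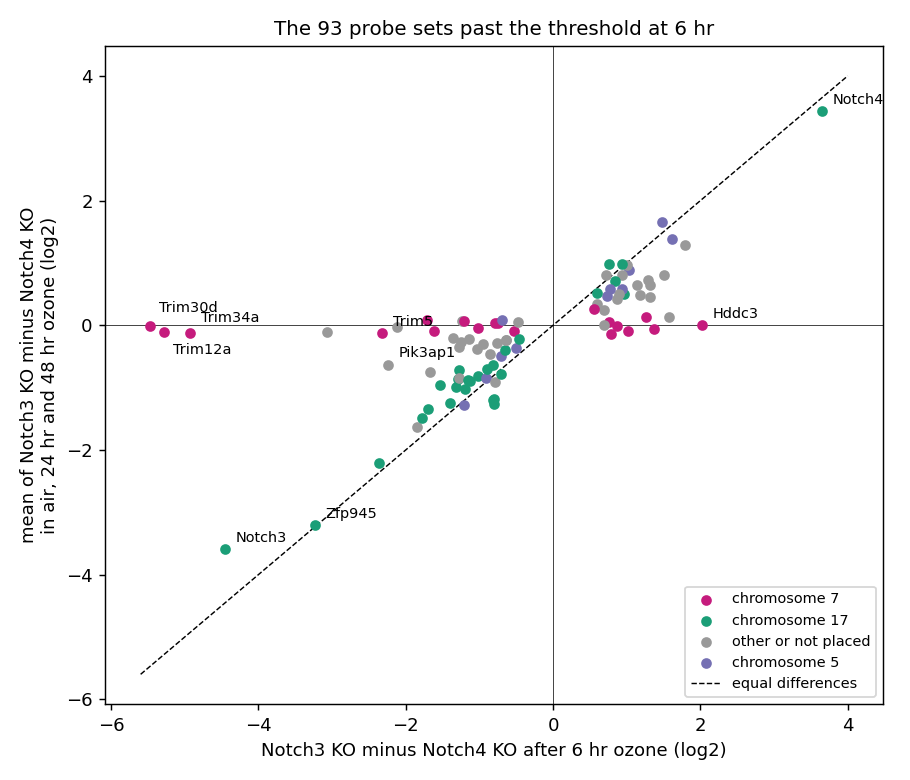
Each point is 1 of the 93 probe sets past the threshold, with the difference of Notch3 KO minus Notch4 KO at 6 hr (x axis, log2) against the mean of that difference in air, 24 hr and 48 hr ozone (y axis, log2), coloured by chromosome. Chromosome 7 probe sets, led by Trim30d at -5.47, lie along 0 on the y axis, while most chromosome 17 and 5 probe sets lie near the dashed line of equal differences.

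The *Trim* genes encode proteins with RING, B-box and coiled-coil domains, many of them ubiquitin ligases. *Trim5*, *Trim12a*, *Trim34a*, *Trim30a* and *Trim30d* belong to a cluster whose members act in innate immunity, in restriction of retroviruses and in control of Toll-like receptor signalling. These 5 genes were called among the 6 measured from *Trim34a* to *Trim30d* in gene order, a stretch whose ends are called genes. The 300-base windows around the RefSeq starts of 4 of them are shown because these neighbours were low together in the same mice. In each, capitals mark TTTC, any 2 bases and TTTC, the reverse strand of GAAA, any 2 bases and GAAA, a repeat that interferon regulatory factors are known to bind (5′ to 3′ on the gene's strand, RefSeq build GRCm38.p6).
Trim34a, chr7:104244207-104244506, plus strand: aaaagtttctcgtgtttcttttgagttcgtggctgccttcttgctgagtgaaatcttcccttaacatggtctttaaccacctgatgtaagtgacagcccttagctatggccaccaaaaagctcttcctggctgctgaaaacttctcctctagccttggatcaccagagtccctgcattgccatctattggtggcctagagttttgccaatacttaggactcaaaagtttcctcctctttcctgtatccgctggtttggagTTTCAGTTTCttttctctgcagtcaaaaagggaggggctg
Trim5, chr7:104288057-104288356, minus strand: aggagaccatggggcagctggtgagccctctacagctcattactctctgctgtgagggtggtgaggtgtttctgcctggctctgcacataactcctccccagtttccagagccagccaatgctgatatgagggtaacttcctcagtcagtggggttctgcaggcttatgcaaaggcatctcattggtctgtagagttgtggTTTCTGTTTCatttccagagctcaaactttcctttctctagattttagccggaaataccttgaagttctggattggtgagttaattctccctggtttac
Trim12a, chr7:104315446-104315745, minus strand: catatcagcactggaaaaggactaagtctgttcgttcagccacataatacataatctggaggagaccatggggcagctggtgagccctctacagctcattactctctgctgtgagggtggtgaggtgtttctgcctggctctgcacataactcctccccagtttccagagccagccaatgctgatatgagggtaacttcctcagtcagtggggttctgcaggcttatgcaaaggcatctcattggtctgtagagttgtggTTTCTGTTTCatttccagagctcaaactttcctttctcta
Trim30d, chr7:104507800-104508099, minus strand: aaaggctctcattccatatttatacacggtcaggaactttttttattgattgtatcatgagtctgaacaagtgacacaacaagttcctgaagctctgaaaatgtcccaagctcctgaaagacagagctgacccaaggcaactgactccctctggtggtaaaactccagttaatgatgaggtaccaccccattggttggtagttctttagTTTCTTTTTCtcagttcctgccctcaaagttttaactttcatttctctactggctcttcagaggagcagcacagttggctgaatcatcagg
Either orientation of this 10-base motif was found in the windows of 5 of the 12 called chromosome 7 genes that have one (41.7%), all of them *Trim* genes, against 3.63% of 14452 measured genes and 3.44% of 32851 windows. The match says only that these letters are present. The windows of *Trim5* and *Trim12a* share a run of 241 bases and those of *Trim30a* and *Trim30d* one of 118, so these are near copies, and a probe set of one gene may read another.

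*Trim30d* showed the largest difference of any gene. It was at -4.63, -4.76 and -4.76 in the *Notch3*-/- mice, at 0.80, 0.89 and 0.56 in the *Notch4*-/- mice, and at -1.06, -1.05 and -0.57 in WT mice after 6 hr of ozone. The 3 genotypes did not overlap, with WT between the lines. The difference between the lines was -5.47 ± 0.19 (adjusted p = 6.5e-18), a 44.2-fold lower signal in *Notch3*-/- lungs. The same probe set differed between the lines by -0.41 in air, -0.14 at 24 hr and 0.51 at 48 hr (adjusted p = 0.37, 0.78 and 0.27). In *Notch3*-/- lungs its mean was -0.14 in air, -4.71 at 6 hr, 0.18 at 24 hr and 0.37 at 48 hr, while the WT means lay between -0.84 and -1.16 at every exposure. By their means, both lines thus stood above WT in air, at 24 hr and at 48 hr, and at 6 hr only *Notch4*-/- did. Against the same WT mice at 6 hr, *Notch3*-/- differed by -3.82 (adjusted p = 4.7e-14) and *Notch4*-/- by 1.64 (adjusted p = 4.4e-06). A second *Trim30d* probe set differed by -1.71 ± 0.17 at 6 hr (adjusted p = 4e-07).

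*Trim12a* was at -4.48, -5.03 and -4.67 in *Notch3*-/- and at 0.40, 0.64 and 0.63 in *Notch4*-/- mice, a difference of -5.28 ± 0.22 (adjusted p = 6.8e-16). Its WT mice at 6 hr were at -0.69, -0.90 and -0.70, again between the lines. A second *Trim12a* probe set differed by only -0.40 ± 0.17 (adjusted p = 0.81), so the probe sets of this gene disagree in size.

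*Trim34a* was at -4.07, -4.53 and -3.54 in *Notch3*-/- and at 0.89, 0.90 and 0.83 in *Notch4*-/- mice by one probe set, a difference of -4.92 ± 0.23 (adjusted p = 1.4e-14). Its other probe set went the opposite way, at 1.75, 0.32 and 1.58 against -0.39, -0.08 and 0.01, a difference of 1.37 ± 0.24 (adjusted p = 0.0042). That second call was lost without *Notch3*-/- replicate 1 or 3 or *Notch4*-/- replicate 1 (adjusted p up to 0.088, difference then 1.11). The direction of *Trim34a* therefore depends on which probe set is read.

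*Trim5* was at -1.51, -1.62 and -1.33 in *Notch3*-/- and at 0.95, 0.65 and 0.90 in *Notch4*-/- mice, a difference of -2.32 ± 0.27 (adjusted p = 7.3e-06). *Trim30a*, a negative regulator of Toll-like receptor and inflammasome signalling, was at -0.37, -1.07 and -0.36 against 0.59, 0.55 and 0.70, a difference of -1.21 ± 0.21 (adjusted p = 0.0031). Both were lower in all 3 *Notch3*-/- mice than in any *Notch4*-/- mouse. *Trim6*, in the same cluster, differed by -0.42 ± 0.16 (adjusted p = 0.69). Over the 58 *Trim* genes measured with 1 probe set each, 1 was called higher and 3 lower (1 and 5 by any probe set), with a median difference of 0.009, against 0.225% of genes called and a median of 0.017 over all 18193 genes.

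**Figure D2:**
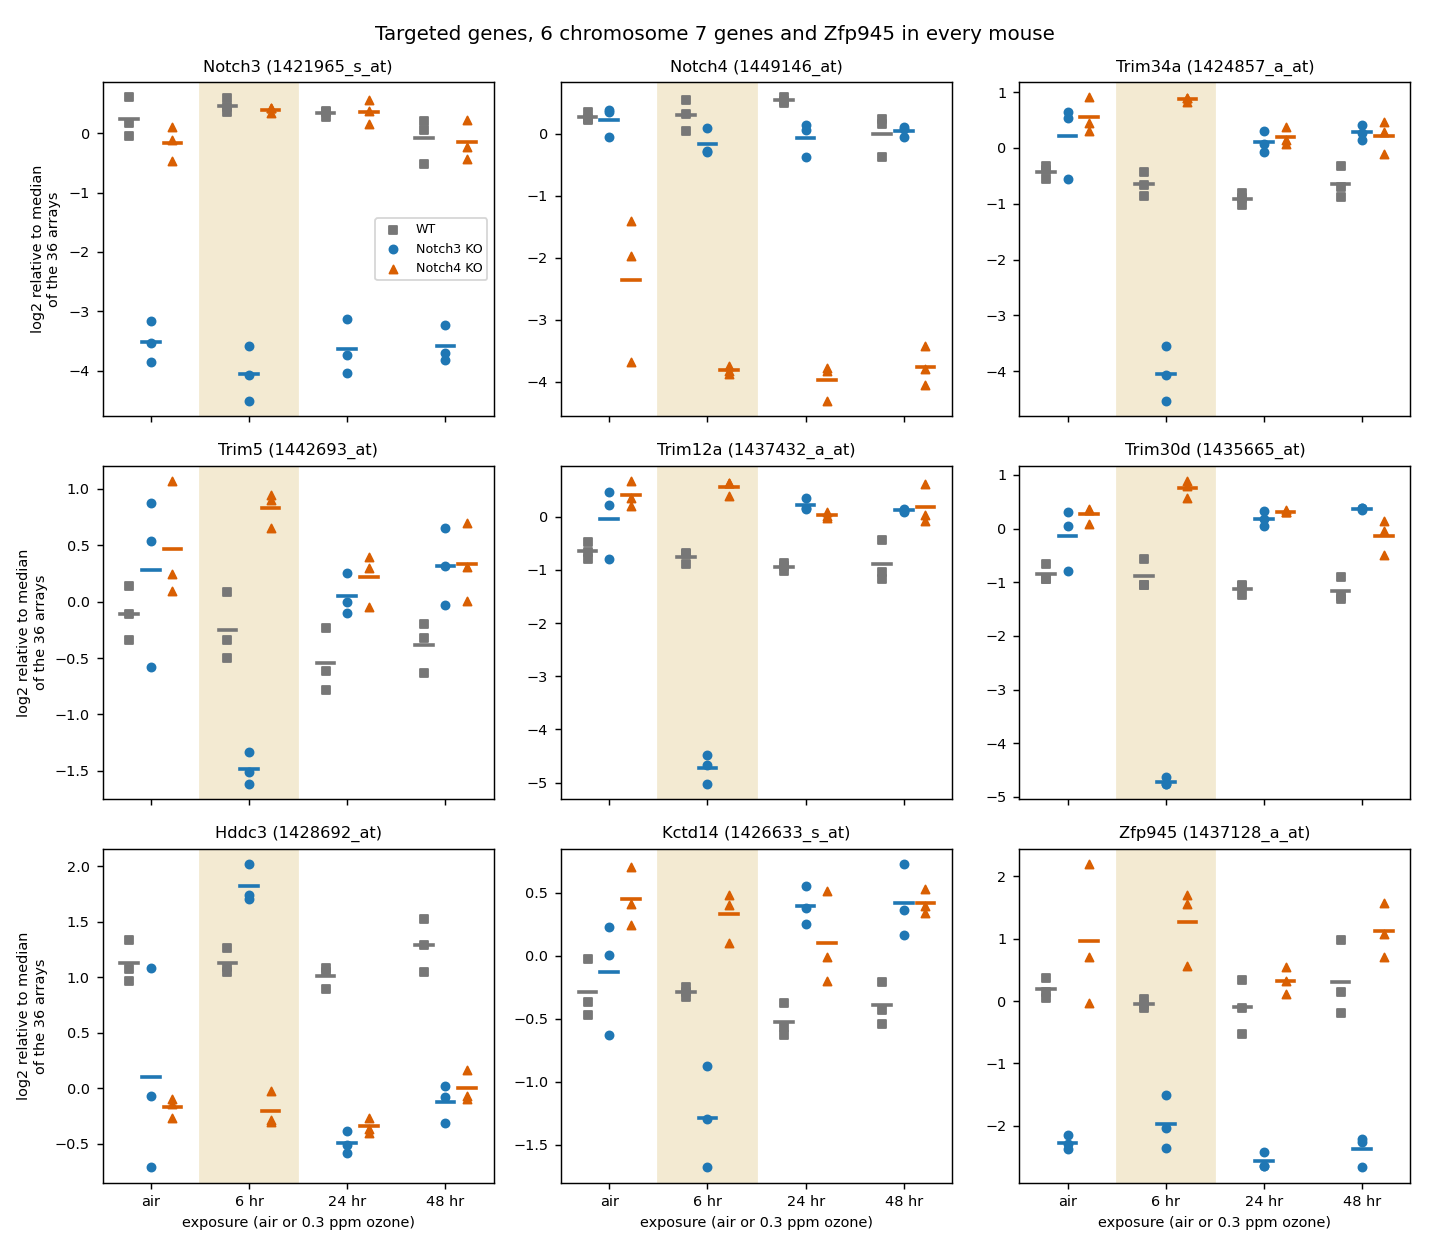
Each panel gives 1 probe set in all 36 mice, with exposure on the x axis, log2 relative to the median of the 36 arrays on the y axis, points for mice, short bars for group means of 3 and the 6 hr groups shaded. Notch3 and Notch4 were low in their own lines at all exposures, the 4 Trim genes and Kctd14 were low in Notch3 KO mice at 6 hr, Hddc3 was high there, and Zfp945 was low in Notch3 KO mice at all exposures.

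The other 9 called chromosome 7 genes lie before the *Trim* genes in gene order, from *Cib1* on. From *Cib1* to *Trim30d*, 14 of 186 measured genes were called (7.53%), but the calls themselves set the ends of this stretch. Over the whole chromosome 0.991% were called, and over all chromosomes 0.338%. The 9 genes moved in both directions. *Hddc3*, a phosphohydrolase, was at 1.71, 2.02 and 1.74 in *Notch3*-/- and at -0.29, -0.02 and -0.30 in *Notch4*-/- mice, a difference of 2.02 ± 0.23 (adjusted p = 4.5e-06). Its WT mice at 6 hr were at 1.09, 1.04 and 1.26, and in air, at 24 hr and at 48 hr the lines differed by 0.27, -0.15 and -0.12. *Kctd14*, a BTB-domain protein, was at -0.88, -1.30 and -1.68 against 0.48, 0.10 and 0.40, a difference of -1.61 ± 0.20 (adjusted p = 2.2e-05). *Fah*, which catalyses the last step of tyrosine breakdown, was higher by 0.75 ± 0.11 (adjusted p = 0.00057).

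The other 6 genes of this stretch had calls that depended on single mice. *Cib1*, a calcium-binding partner of integrins, was higher by 1.26 (adjusted p = 0.014) and *Saxo2*, a microtubule-associated protein, by 1.02 (adjusted p = 0.019), while *Mex3b*, an RNA-binding protein, was lower by 0.79 on the log2 scale (-0.79, adjusted p = 0.016). *Myo7a*, an unconventional myosin (-0.75, adjusted p = 0.034), *Pgap2*, a remodeller of GPI anchors (-0.53, adjusted p = 0.024), and *Sh3gl3*, an endophilin (0.56, adjusted p = 0.037), completed the set. Each of these 6 calls was lost when at least 1 of the 6 mice was left out, for *Pgap2* with any of them (adjusted p up to 0.12) and for *Cib1* without *Notch4*-/- replicate 2 or 3 or without *Notch3*-/- replicate 2. That last mouse was at 1.90 against 0.40 and 0.58 in its group, and without it *Cib1* differed by 0.78 (adjusted p = 0.095). *Hddc3*, *Kctd14*, *Fah* and the 5 *Trim* genes kept a called probe set in each of these 6 fits.

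For all 19 called chromosome 7 probe sets the WT mean at 6 hr lay between the means of the lines. That held for called probe sets in general, 83 of the 93 (89.2%), among them 11 of 11 on chromosome 5 and 3 of 3 on chromosome 10, and for 28.3% of all probe sets. In air, *Notch3*-/- replicate 1 differed from its 2 companions at these genes. It was at -0.78 for *Trim30d* where the others were at 0.06 and 0.32, and at 1.09 for *Hddc3* where they were at -0.71 and -0.07. It was the air mouse of its line nearest to the line's 6 hr mean in 17 of the 19 probe sets (89.5%, against 30.9% of all probe sets). Which parental strain's copy of chromosome 7 each mouse carried was not measured, and its part in these differences was not tested.

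**Figure D3:**
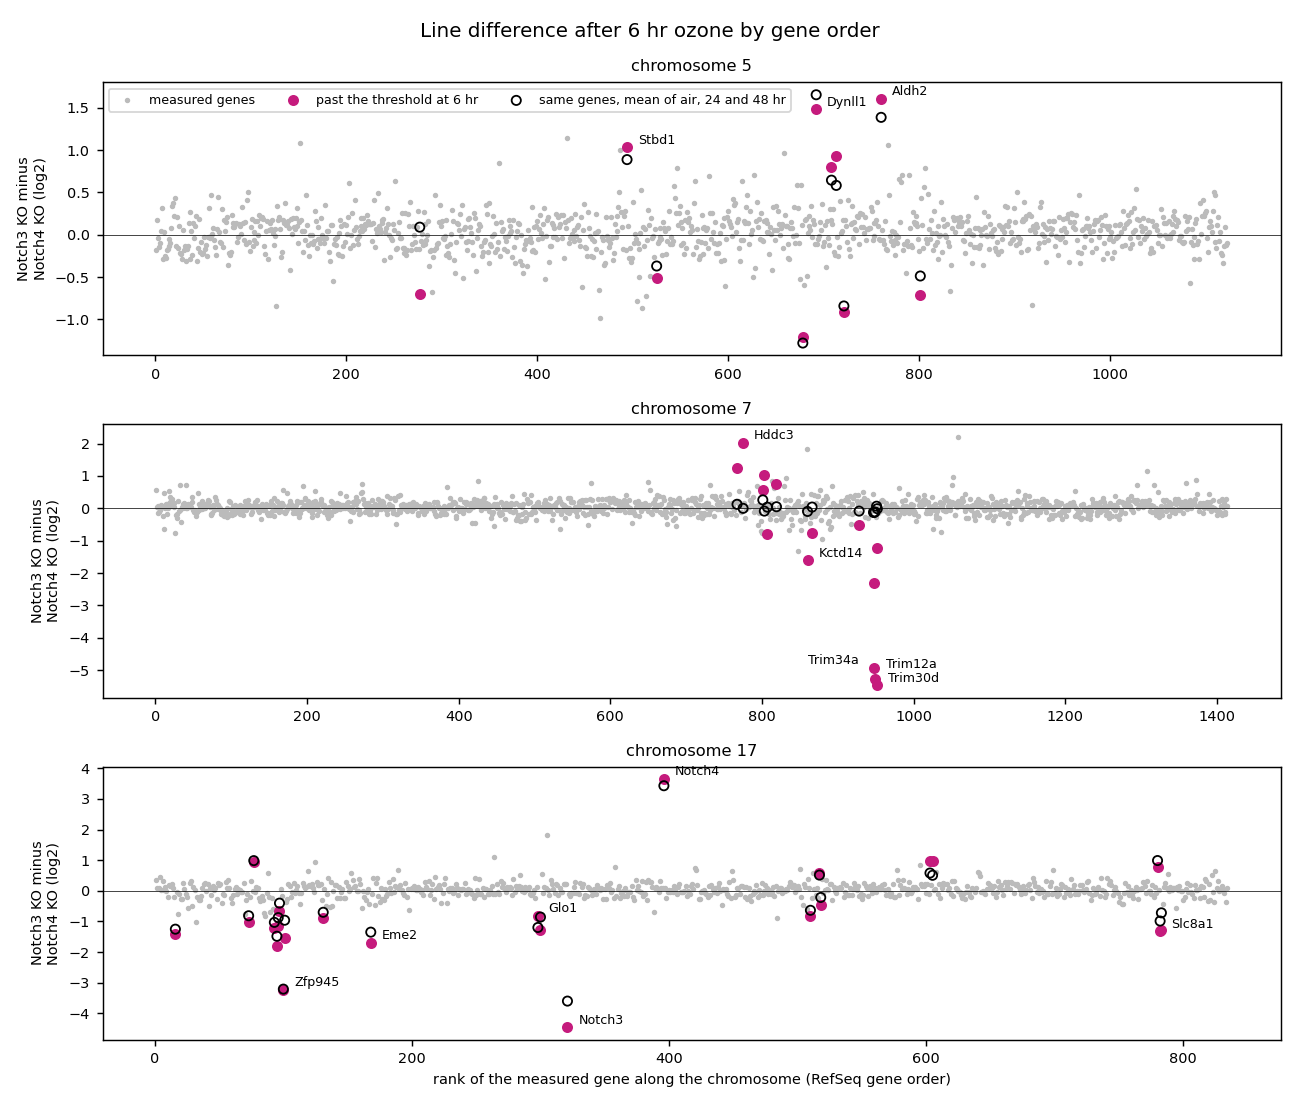
Each point is a measured gene in RefSeq gene order along chromosomes 5, 7 and 17 (x axis, rank) with the difference of Notch3 KO minus Notch4 KO at 6 hr (y axis, log2), taken from its probe set with the largest difference. Filled points passed the threshold, and open circles give their mean difference in air, 24 hr and 48 hr, which sits near 0 on chromosome 7 and near the 6 hr value for most called genes on chromosomes 5 and 17.

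On chromosome 17, which carries *Notch3* and *Notch4* themselves, 28 probe sets of 23 genes were called, 6 higher and 22 lower in *Notch3*-/- lungs. Of the 28, 27 kept their sign in air and at 24 hr and 48 hr, against 12.3% of all probe sets. For 27 the mean at those exposures was at least 0.5 times the 6 hr size, against 32.8% of all probe sets. The 28 include the called probe sets of *Notch3* and *Notch4*, the deleted genes themselves. In the stretch of zinc finger genes, which encode DNA-binding proteins, 6 of the 9 genes measured from *Zfp942* to *Zfp40* were called, all lower. The ends of this stretch, too, were set by the calls. *Zfp945* was at -2.03, -2.36 and -1.50 in *Notch3*-/- and at 1.55, 0.57 and 1.71 in *Notch4*-/- mice, a difference of -3.24 ± 0.37 (adjusted p = 4e-06). Its WT mice lay between them at -0.12, -0.06 and 0.03. The same probe set differed by -3.23 in air, -2.89 at 24 hr and -3.50 at 48 hr. *Zfp994* differed by -1.79 ± 0.17 (adjusted p = 2.5e-07), *Zfp942* by -1.20, *Zfp944* by -1.16, *Zfp40* by -1.54 and *Zfp758* by -0.65. The call of *Zfp40* was lost without replicate 1 or 3 of either line (adjusted p at most 0.093 by the probe set with the larger difference) and that of *Zfp758* without *Notch3*-/- replicate 3 or *Notch4*-/- replicate 1 (adjusted p at most 0.11).

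Other chromosome 17 genes were enzymes, carriers and receptors. *Eme2*, a subunit of a DNA structure-cutting nuclease, was at -0.87, -0.88 and -0.57 in *Notch3*-/- and at 0.66, 1.23 and 0.88 in *Notch4*-/- mice, a difference of -1.70 ± 0.19 (adjusted p = 4e-06). *Slc8a1*, the sodium-calcium exchanger, differed by -1.32 ± 0.20 (adjusted p = 6e-04), *Dnah8*, an axonemal dynein, by -1.29 and *Dynlt1f*, a dynein light chain, by -1.40. *Glo1*, which detoxifies methylglyoxal, was lower by 3 probe sets (-0.81, -0.81 and -0.80) and differed by more in air (-1.18 to -1.38) and at 24 hr (-1.47 to -1.69). At 6 hr, *Glo1* in *Notch4*-/- mice (0.61 to 1.06 over the 3 probe sets) stood above every *Notch3*-/- and WT mouse, and each of its 3 calls was lost without *Notch3*-/- replicate 3 (difference -0.68 and adjusted p = 0.071 for the first of these) and those of the other 2 probe sets also without *Notch3*-/- replicate 1 or *Notch4*-/- replicate 2. *Tbc1d24*, which acts in vesicle traffic, was lower by 0.90 on the log2 scale (-0.90 ± 0.10, adjusted p = 2.5e-06), and *Pkdcc*, a secreted kinase, differed by -1.28 and -0.71 on its 2 probe sets. *Riok2* (-1.03), *Adgrf5* (-0.82) and *Enpp4* (-0.47) passed as well, and their calls were lost without single mice (adjusted p at most 0.34, 0.22 and 0.2). *Unc5cl*, *Apobec2*, *Tmem178* and *Enpp5* were higher, by 0.96, 0.84, 0.76 and 0.59. Of these, the call of *Tmem178* held without any 1 mouse, *Apobec2* was lost without *Notch4*-/- replicate 2, *Unc5cl* without that mouse or *Notch3*-/- replicate 1, and *Enpp5* without any 1 of 4 mice (adjusted p at most 0.34).

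*Fpr2*, the formyl peptide receptor that guides neutrophils, was the 1 called neutrophil marker. It was at 0.14, 0.93 and 0.00 in *Notch3*-/- and at -0.42, -0.71 and -0.59 in *Notch4*-/- mice, a difference of 0.93 ± 0.20 (adjusted p = 0.034). The line difference was 0.65 in air, 1.53 at 24 hr and 0.78 at 48 hr. The 6 hr call was lost without *Notch3*-/- replicate 2 (difference then 0.65, adjusted p = 0.21) and without any 1 of the *Notch4*-/- mice. Around the targeted genes themselves, the 199 measured neighbours of *Notch3* and the 199 of *Notch4*, lists that overlap, each held the same 2 called genes, *Glo1* and *Dnah8* (against 0.225% of all genes), with median differences of 0.018 and 0.002 (0.011 and -0.005 with each array centred on its median).

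On chromosome 5, 10 genes were called, and 10 of their 11 probe sets kept their sign at the 3 other exposures. *Aldh2*, the mitochondrial aldehyde dehydrogenase, was at 0.50, 0.65 and 0.71 in *Notch3*-/- and at -1.03, -0.70 and -1.24 in *Notch4*-/- mice, a difference of 1.61 ± 0.18 (adjusted p = 3.1e-06). In air, at 24 hr and at 48 hr it differed by 1.38, 1.53 and 1.25. *Dynll1*, a dynein light chain, was higher by 1.48 ± 0.18 (adjusted p = 1.6e-05), *Pebp1*, the Raf kinase inhibitor protein, by 0.93 ± 0.11 (adjusted p = 1.1e-05) and *Stbd1*, a glycogen-binding protein, by 1.03 ± 0.19 (adjusted p = 0.0083). *Vps33a*, a component of endosomal tethering complexes, was lower, at -0.71 ± 0.08 (adjusted p = 4.5e-06). *Hspb8*, a small heat shock protein and the 1 called gene of 18 heat shock genes, was higher by 0.77 and 0.73 on 2 probe sets. Read by its probe set with the largest SD, *Hspb8* was not called. The calls of *Hspb8* and *Stbd1* were lost when single mice were left out, both of *Hspb8* without *Notch3*-/- replicate 1 and each also without others (adjusted p at most 0.11 and 0.073) and *Stbd1* without *Notch3*-/- replicate 2 or *Notch4*-/- replicate 1 (adjusted p at most 0.097).

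The start of chromosome 10 held 3 called genes among the 25 measured up to the last of them, a stretch set by the calls. Over the whole chromosome 0.349% of measured genes were called, against 0.338% over all chromosomes. *Lats1*, a kinase of the Hippo pathway, was at -0.88, -1.46 and -1.30 against 0.43, 0.95 and 0.50, a difference of -1.84 ± 0.19 (adjusted p = 1.2e-06). *H60c*, a ligand of the NKG2D receptor of natural killer cells, was higher at 1.17, 0.49 and 1.15 against -0.72, -1.08 and -0.77, a difference of 1.79 ± 0.24 (adjusted p = 9.5e-05). *Iyd*, which recovers iodide from tyrosines, differed by -1.28 ± 0.21. All 3 differences had the same sign at the other exposures. On chromosome 19, *Pik3ap1*, an adaptor of PI3-kinase in B cells and macrophages, was at -1.50, -1.52 and -1.59 against 0.74, 1.06 and 0.35, a difference of -2.25 ± 0.43 (adjusted p = 0.0096). It differed by -1.07 in air, -0.73 at 24 hr and -0.10 at 48 hr, and its 6 hr call was lost without *Notch3*-/- replicate 1 or 3 or *Notch4*-/- replicate 1 or 2 (adjusted p at most 0.084). *Cd274*, which encodes the checkpoint ligand PD-L1, was higher by 0.59 ± 0.11 (adjusted p = 0.0062, lost without *Notch3*-/- replicate 1 or 3 or *Notch4*-/- replicate 1), and *Kazald1* by 1.17 ± 0.16 (adjusted p = 0.00012).

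**Figure D4:**
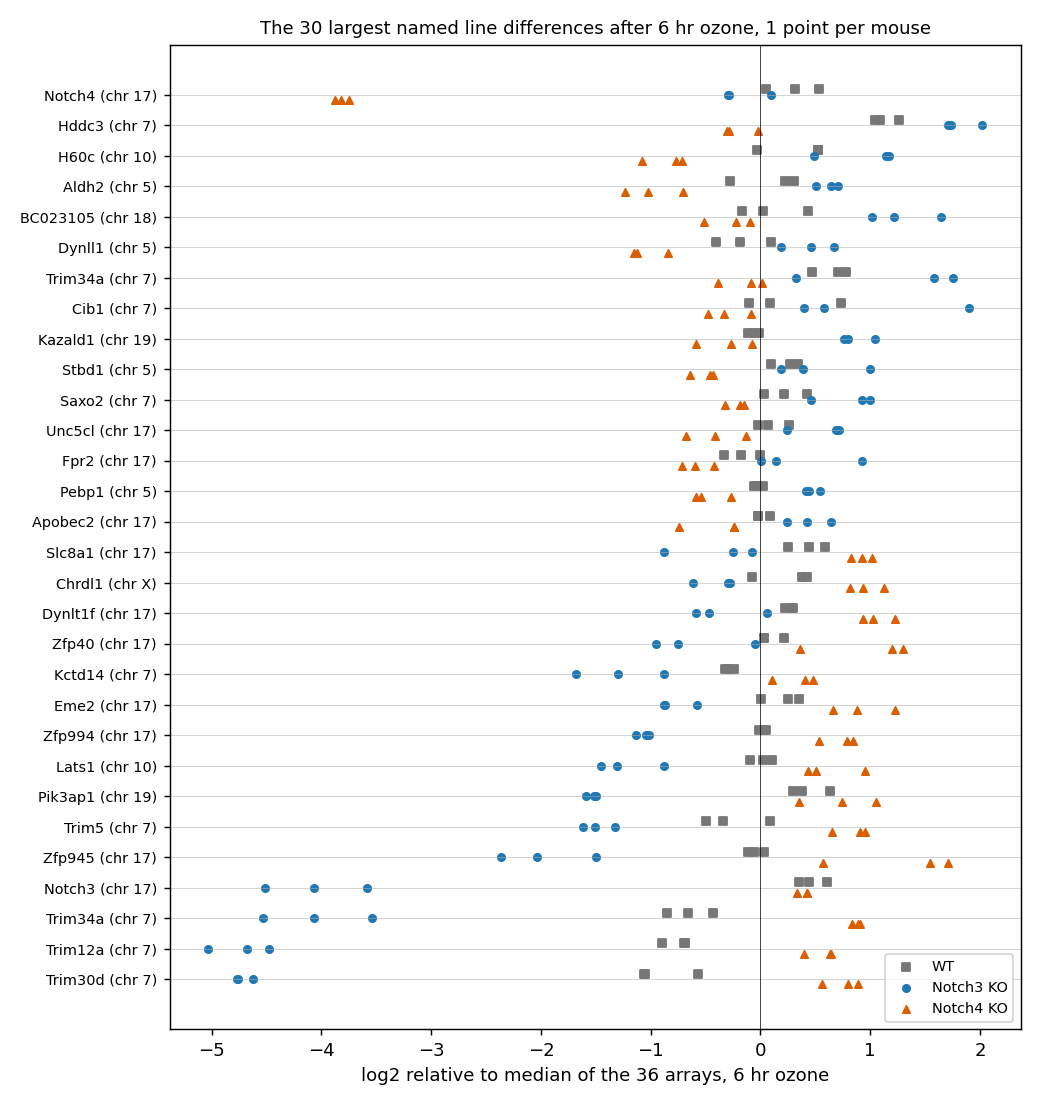
The 15 largest higher and 15 largest lower called genes (1 row per probe set, chromosome in brackets) are shown with every mouse of the 6 hr groups as a point, and the x axis gives log2 relative to the median of the 36 arrays. Notch3 KO and Notch4 KO mice do not overlap in any row, and for most genes the WT mice lie between them, as for Zfp945 at -0.12 to 0.03.

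A few called genes lay outside these chromosomes. *Sox11*, a transcription factor of developing tissues, was lower by all 4 called probe sets, by -1.04 to -1.28. By the probe set with the largest difference it was at -0.71, -1.03 and -0.76 in *Notch3*-/- and at 0.29, 0.34 and 0.71 in *Notch4*-/- mice (difference -1.28 ± 0.18, adjusted p = 0.00015). The line difference of that probe set was -0.08 in air, -0.83 at 24 hr and -0.15 at 48 hr. *Chrdl1*, an antagonist of bone morphogenetic proteins, was at -0.28, -0.30 and -0.61 against 0.94, 1.13 and 0.81, a difference of -1.36 ± 0.18 (adjusted p = 1e-04). *Aplnr*, the apelin receptor of endothelial cells, was at -0.66, -0.52 and -0.52 against 0.32, 0.39 and 0.46, a difference of -0.95 ± 0.16 (adjusted p = 0.0021). In WT mice at 6 hr, *Aplnr* was at 0.42, 0.31 and 0.83, so that the *Notch3*-/- mice stood below both other genotypes. A list of 33 endothelial genes, which reads *Aplnr* by its other probe set (-0.77, adjusted p = 0.011), had 25 genes below 0 and 8 above, with a median of -0.12 and no other call. *BC023105*, on chromosome 18, was higher by 1.57 ± 0.23 (adjusted p = 3e-04). Of the 93 called probe sets, 17 have no single gene name, 11 of them higher and 6 lower.

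Whether the line difference at 6 hr itself departed from the line difference at the mean of air, 24 hr and 48 hr was tested as a contrast. It did for 14 probe sets (0.0311%), 3 higher and 11 lower, and the 6 hr arrays enter both this test and the calls above. By gene these were *Trim30d* (-5.46, adjusted p = 3.4e-16), *Trim12a* (-5.17), *Trim34a* (-4.80), *Trim5* (-2.19, adjusted p = 0.00077), *Kctd14* (-1.52, adjusted p = 0.0023), *Trim30a* (-1.28, adjusted p = 0.041), *Hddc3* (2.02, adjusted p = 0.00019) and *Fah* (0.70, adjusted p = 0.039) on chromosome 7. Elsewhere, *BC023105* (1.44, adjusted p = 0.034), *Chrdl1* (-1.15, adjusted p = 0.035) and *Abi3bp*, a matrix protein (-0.88, adjusted p = 0.022), also passed, as did 2 probe sets without a single gene. None of the 28 called chromosome 17 probe sets and none of the 11 on chromosome 5 did. Leaving out 1 of the 6 mice kept the departures of *Trim30d*, *Trim12a*, *Trim34a*, *Trim5*, *Kctd14* and *Hddc3*, while those of *Trim30a*, *Fah*, *BC023105*, *Chrdl1* and *Abi3bp* were each lost in 5 of the 6 fits.

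The response to 6 hr of ozone, measured against the air mice of the same line, differed between the lines for 14 probe sets (0.0311%), 1 higher and 13 lower in *Notch3*-/-. The labels give these air mice no time, so whether their stay in the chamber matched 6 hr is not known here. *Trim30d* fell from air to 6 hr in *Notch3*-/- mice (-4.58, adjusted p = 7.9e-16), the value in *Notch4*-/- mice was 0.48 (adjusted p = 0.35), which gives a difference of responses of -5.06 ± 0.26 (adjusted p = 5.4e-13). *Trim12a* and *Trim34a* had differences of responses of -4.84 and -4.58, and these 3 passed in all 23 alternative fits. *Trim5* (-2.13, adjusted p = 0.035) and *Hddc3* (1.75, adjusted p = 0.038) passed here, but in 10 and 11 of the 12 fits that leave out 1 mouse they did not. With *Notch4*-/- air replicates 1 and 2 left out, 18 probe sets passed, 5 of them among the 14, but that group then holds 1 mouse, which is assumed to vary like the other groups. For *Chrdl1* the response was -0.65 in *Notch3*-/- and 0.82 in *Notch4*-/- mice, neither past the threshold alone (adjusted p = 0.16 and 0.12), and for *Aplnr* it was -0.64 and 0.57 (adjusted p = 0.11 and 0.21).

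No member of the Notch pathway other than the deleted receptors was called. *Notch1* differed by 0.10 ± 0.41 and *Notch2* by 0.01 ± 0.10, neither past the threshold (adjusted p = 1 for both). Of 6 Notch ligands none was called, with *Jag1* at 0.09 ± 0.17, *Jag2* at 0.04 ± 0.13, *Dll1* at 0.05 ± 0.36 and *Dll4* at -0.20 ± 0.16. Of 11 target genes none was called, with a median of 0.047 and *Hes1* at 0.15 ± 0.16. Of 21 genes of Notch processing and signal transduction none was called. *Mib1*, the ubiquitin ligase that activates ligands, had the largest difference there, at -0.13, -0.16 and -0.35 against 0.52, 0.15 and 0.24 (-0.51 ± 0.14, adjusted p = 0.19).

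Inflammatory mediators likewise did not pass between the lines. *Tnf* differed by 0.05 ± 0.18, *Cxcl1* by -0.20 ± 0.36, *Cxcl2* by -0.33 ± 0.22 and *Il33* by -0.22 ± 0.19, each with an adjusted p of 1. *Traf6*, *Myd88* and *Socs3* differed by 0.00, -0.07 and -0.10. *Il6* was at -1.72, -1.15 and -1.36 in *Notch3*-/- and at -0.39, -0.68 and -0.62 in *Notch4*-/- mice, groups that did not overlap. Its difference of -0.84 ± 0.39 did not pass (adjusted p = 0.88), with an SE that also holds the spread at the other exposures. Of the 7 neutrophil chemokine genes, 6 were below 0 and 1 above, with a median of -0.203. The interferon-stimulated list (37 genes, none called) had a median of 0.054, which became -0.009 when the arrays were quantile normalized once more. The SE was 0.139 at the median of all probe sets, and a missed threshold does not show equal levels.

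Antioxidant genes lay on one side without any passing. All 28 measured genes of the NRF2 list, the main antioxidant program, had differences above 0 (median 0.161), and all 20 glutathione S-transferase genes did (median 0.134, 19 of 20 after a further quantile normalization), where 10069 of 18193 genes did. The means of the NRF2 list did not separate the lines, with *Notch3*-/- mice at 0.46, -0.12 and 0.32 and *Notch4*-/- mice at 0.09, 0.04 and -0.07. Replicate 2 of *Notch3*-/- thus lay below all *Notch4*-/- mice for this list. The means of the glutathione S-transferase list nearly touched without overlap, at 0.137 to 0.384 in *Notch3*-/- and 0.011 to 0.135 in *Notch4*-/- mice. Lists of other kinds did not overlap either, among them platelets, and neurons and glia, so this is not particular to antioxidant genes. *Nqo1*, the quinone reductase, was at 1.59, 0.04 and 1.34 against 0.77, 0.18 and -0.16 (0.73 ± 0.29, adjusted p = 0.78), and *Cyp1a1*, a target of the aryl hydrocarbon receptor, at 3.45, -0.30 and 3.12 against 1.80, 0.91 and 0.07 (1.16 ± 0.59, adjusted p = 0.94). Without *Notch3*-/- replicate 2 both passed, *Nqo1* at 1.20 (adjusted p = 0.041) and *Cyp1a1* at 2.35 (adjusted p = 0.008). That fit gained 4 of 224 named probe sets not called before and lost 15 of 76 calls. Leaving out any other single mouse of the 6 hr groups gained none. Between the lines, *Cyp1a1* differed by 0.156 in air, -1.726 at 24 hr and 1.461 at 48 hr. *Gsto1*, a glutathione transferase of the omega class, was at 1.23, 0.62 and 0.70 against 0.32, -0.51 and -0.27 (SE of the difference 0.29, adjusted p = 0.34).

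Cell type markers were described by list. The mean of the 17 neutrophil genes was 0.35, 0.67 and 0.44 in *Notch3*-/- mice, 0.06, 0.15 and -0.15 in *Notch4*-/- mice and between -0.59 and -0.49 in WT mice at 6 hr, so that the 3 genotypes did not overlap. WT mice were already below both lines in air, at -0.617, -0.285 and -0.369. The lines overlapped in air and at 48 hr but not at 24 hr. Neutrophil chemokine means also did not overlap between the 3 genotypes at 6 hr, with *Notch3*-/- below *Notch4*-/- mice. Other lists separated the lines as well, such as heat shock and glucocorticoid response. By gene, 14 of the 17 were above 0 (median 0.406) and *Fpr2* alone was called. The granule genes *Ngp* and *Camp* differed by 1.29 ± 0.44 and 1.27 ± 0.44 (adjusted p = 0.58 and 0.59), and *Ngp* passed without *Notch3*-/- replicate 2 (1.92, adjusted p = 0.045). Both went the other way later, *Ngp* at -0.648 and *Camp* at -0.657 at 24 hr, and at -1.005 and -1.139 at 48 hr. The 20 macrophage genes had a median of 0.197, with none called. The 19 B and plasma cell genes had a median of -0.458 (16 below 0, none called), with list means of -0.21, 0.25 and -0.09 in *Notch3*-/- and 0.34, 0.32 and 0.47 in *Notch4*-/- mice. For the 11 platelet genes the median was -0.402 (10 below 0, none called).

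Markers of tissue that can be carried over with lung, and of airway and mesothelial cells of the lung itself, varied among the mice. The mean of 18 adipocyte genes was 1.48, 0.88 and -0.19 in *Notch3*-/- and 0.29, 0.07 and -0.41 in *Notch4*-/- mice, with all 18 differences above 0 (median 0.638) and none called. The mean of 24 cardiac muscle genes was 1.09, 0.64 and -0.25 against 0.46, 0.04 and -0.60 (median difference 0.444, none called). Of 14 club cell genes, 8 were above 0 and 6 below, with a median of 0.029 and none called. The members with the largest differences varied widely among the mice: *Reg3g*, an antibacterial lectin, was at 4.93, 4.26 and 1.10 against 3.16, -0.97 and -1.68 (3.26 ± 1.76, adjusted p = 0.96) and *Bpifb1* at 3.96, 3.14 and 0.92 against 1.73, -1.02 and -2.19 (3.17 ± 1.69, adjusted p = 0.96). The 11 mesothelial genes had a median of -0.428, with *Notch3*-/- replicate 2 at -0.93 and the other 5 mice between -0.08 and 0.30. The part of these tissues and cells in the lists above was not tested.

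**Figure D5:**
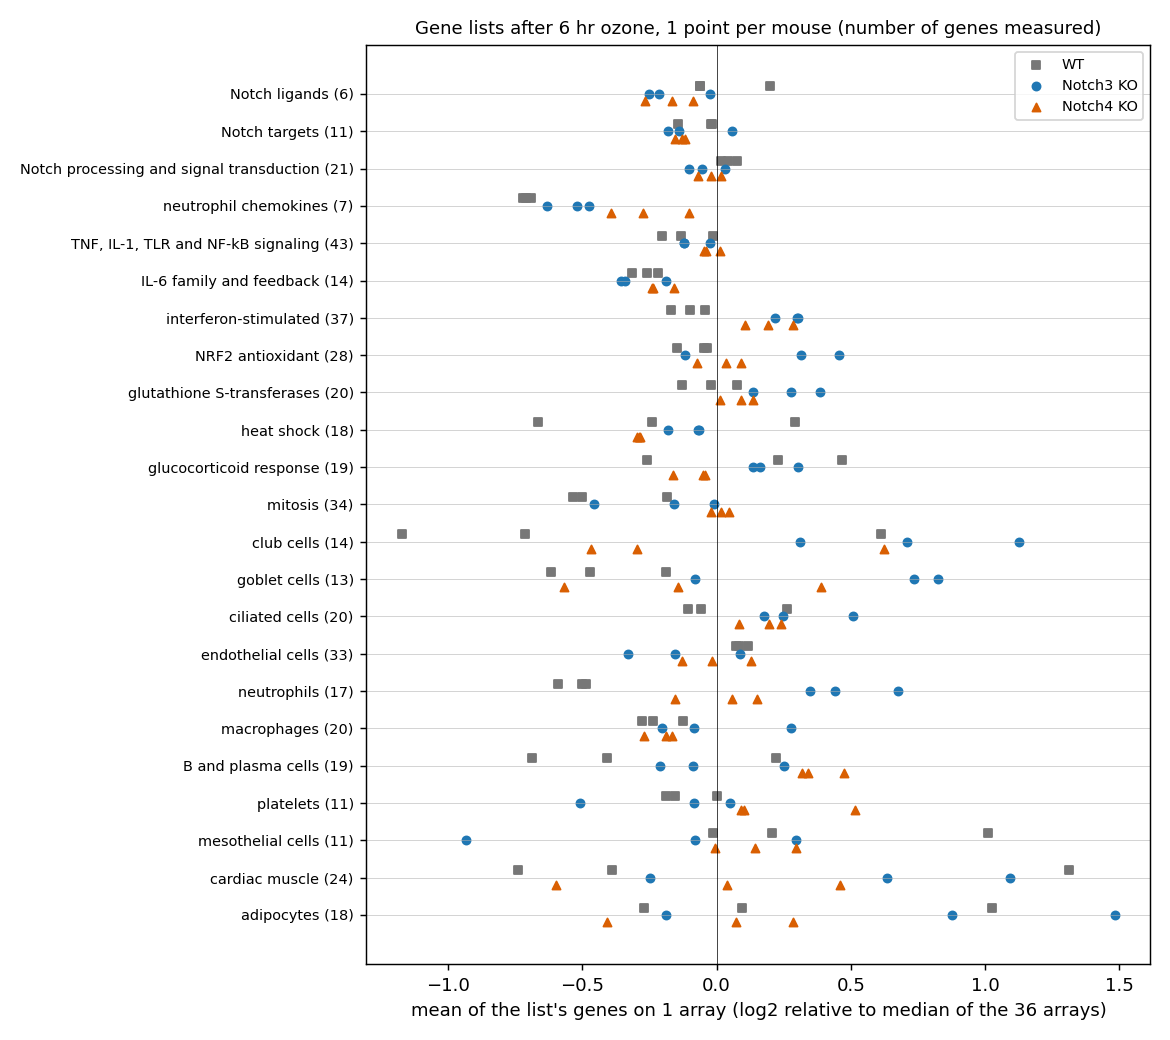
Points give, for each mouse at 6 hr, the mean over the genes of a list (rows, number of genes in brackets) on the x axis in log2 relative to the median of the 36 arrays. Neutrophil genes separate the 3 genotypes (0.35 to 0.67 in Notch3 KO, -0.15 to 0.15 in Notch4 KO). Neutrophil chemokine genes do so too, with Notch3 KO below Notch4 KO (-0.63 to -0.475 and -0.392 to -0.101). Adipocyte and cardiac muscle genes spread widely within each genotype.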

How the data were processed

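Per the labels and the study's methods, Affymetrix mouse genome arrays measured the left lung RNA of 36 mice, and the authors normalized the arrays by RMA (background correction, quantile normalization and log2) in GeneSpring GX. The deposited log2 values are centred, each probe set on its median over the 36 arrays (largest absolute median 5e-07, found in the values), so detection cannot be read from them. Of 45037 probe sets tested, 34945 have 1 gene symbol, 932 several and 9160 none. By gene ID, 34741 were matched to RefSeq (GRCm38.p6), which gave gene order. The 64 array controls were left out.

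Contrasts of 12 group means were tested in limma 3.58.1 (R 4.3.3), with Benjamini-Hochberg adjustment over all probe sets and a threshold of 0.05. The methods' ANOVA with Tukey's test was an alternative, beside other normalizations, array weights, subsets of arrays or probe sets and leaving out single mice. Fold values are 2 to the power of the log2 difference. In lists, each gene is read from 1 probe set, chosen by its suffix. Named genes are all *Notch3* and *Notch4* probe sets, the 15 largest calls each way (5 for the other contrasts), up to 4 members of a list and genes that the paper's text names, with further genes chosen after their values were seen. The members and lists were chosen with earlier results of these data known. Of these steps, only the main comparison of the lines was tested on simulated data. The number of mice, 3 per group, limits the precision, and p-values measure the spread between mice.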

Additional observations from a re-analysis of the deposited data

Results flagged for a closer look

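The 6 hr ozone response differed between the lines, by the test of the difference itself, for 14 probe sets. The differences, *Notch3*-/- minus *Notch4*-/-, were -5.06 for *Trim30d*, -4.84 for *Trim12a*, -4.58 for *Trim34a*, -2.13 for *Trim5*, 1.75 for *Hddc3* and -1.22 for *Mex3b*, all on chromosome 7. The 2 probe sets without a single gene differed by -2.88 and -1.86. The remaining genes were *Chrdl1* (-1.48), *Ninl* (-1.38), *Aplnr* (-1.21), *Heph* (-0.79), *D16Ertd472e* (-0.75) and *Zxdb* (-0.72). In the 12 fits that leave out 1 mouse, *Trim30d*, *Trim12a* and *Trim34a* passed each time, whereas *Aplnr* passed in 0 of them.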

How the results depend on the processing

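No called probe set with 1 gene changed direction under any alternative, and those without a single gene were not checked for this. Of the 76 called probe sets with 1 gene, 19 passed in every alternative, among them *Notch3*, *Notch4*, *Trim30d*, *Trim12a*, *Trim34a*, *Trim5*, *Hddc3*, *Lats1*, *Zfp945*, *Aldh2*, *Sox11* and *Chrdl1*. The 93 calls between the lines at 6 hr became 29 with only the 6 arrays compared and 29 by the methods' ANOVA with Tukey's test, in each case 27.6% of them higher in *Notch3*-/- against 38.7%, and 169 with array weights (39.1% higher). Leaving out 1 of the 6 mice gave 63 to 101 calls, and 36 of the 76 were lost without at least 1 mouse, while 40 were not. Without *Notch3*-/- replicate 3, 46.6% were higher. The 14 differences of responses became 220 with array weights, 8 with only the 24 knockout arrays and 4 with only the groups compared, and 5 to 17 without 1 of the 6 hr or air mice. The 14 departures from the other exposures became 48 with array weights and 9 to 27 without 1 of the 6 hr mice. With alternatives chosen after seeing the data, *Notch4*-/- air replicates 1 and 2 left out gave 18 differences of responses (5 shared with the 14), and *Notch3*-/- air replicate 1 left out as well gave 17 (8 shared) and 17 departures (11 shared). In both fits *Notch4*-/- air is 1 mouse, assumed to vary like the other groups. Reading genes by the probe set with the largest SD turned *Trim34a* from higher to lower and read *Trim12a* by its called probe set in place of the other. The *Trim* family then had 0 genes higher and 5 lower in place of 1 and 3, and the list of 19 genes named by the study 0 and 4 in place of 1 and 2. It gave 18 higher and 34 lower over all genes in place of 18 and 23, and 2 called Notch receptors in place of 1. Of the heat shock genes 0 were called in place of 1, *Hspb8*. The causes were not tested. The values are centred, so signal over background cannot be read.

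Replicate numbers are shared between groups, but the labels tie them to no litter or day, and same-numbered mice of the lines correlated at 0.169, 0.0972 and 0.207. With the replicate block, the counts were 97, 11 and 15 in place of 93, 14 and 14.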

Other observations

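Of 23 smooth muscle and pericyte genes, *Notch3* itself was the 1 called. The following lists held no call at 6 hr. Of 36 genes of the mitochondrial respiratory chain 33 were above 0, with a median difference of 0.087, and of 19 glucocorticoid response genes 17 were (0.185). Of 34 mitosis genes 28 were below 0 (-0.174), and of 29 DNA replication genes 25 were (-0.098), where the mean of the mitosis list was -0.46, -0.01 and -0.16 in *Notch3*-/- and 0.05, 0.02 and -0.02 in *Notch4*-/- mice. For the mitosis list, *Notch3*-/- replicate 2 lay within the range of the *Notch4*-/- mice. Goblet cell genes had a median of 0.394 (12 of 13 above 0) with list means of 0.82, 0.74 and -0.08 against 0.39, -0.14 and -0.57. The 24 skeletal muscle genes had a median of 0.236, and the 15 alveolar type 2 genes one of 0.011.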
